A study of Mus musculus with 2 samples.

Results

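The guanylate-binding proteins measured were the 10 mouse genes Gbp2, Gbp2b, Gbp3, Gbp4, Gbp5, Gbp6, Gbp7, Gbp8, Gbp9 and Gbp10, chosen by symbol from the 32285 genes of the deposited matrices. All 10 were found, and all 10 had at least 10 unique molecular identifiers (UMIs, each counting 1 tagged RNA molecule) in the cells analysed. The cells were live leukocytes, sorted on CD45, from orthotopic liver tumours of Hepa1-6, a hepatoma line of the mouse, in the strain C57/BL6. Every mouse was labelled wild type, and the groups differed in the antibody given, anti-PD-1 or its isotype control. PD-1 is an inhibitory receptor of T cells, and an isotype control is an antibody of the same class with no target in the mouse. Each group was 1 single-cell 3′ library, which leaves no replicate to test the antibodies with, and the sources used here do not state the number of mice per library.

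Guanylate-binding proteins are large GTPases of the dynamin superfamily. Interferon-gamma induces them strongly in macrophages and in many other cells, through promoter elements known as GAS and through IRF1 binding to interferon-stimulated response elements (ISRE), and type I interferon induces several of them too. Their proteins assemble on the membranes of bacteria and of parasite vacuoles, rupture them, and favour inflammasome activation by caspase-11. In tumours their transcripts are widely used as a sign that a cell has responded to interferon-gamma.

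The 10 genes lie in 2 clusters, given here from the GENCODE annotation of GRCm38. On the plus strand of chromosome 3 stand, in order, Gbp5 (chr3:142493978-142522344), Gbp7 (chr3:142530342-142550149), Gbp3 (chr3:142560026-142573209), Gbp2b (chr3:142594847-142619179) and Gbp2 (chr3:142620602-142638008). On the minus strand of chromosome 5 stand Gbp8 (chr5:105014150-105139540), Gbp9 (chr5:105077630-105139539), Gbp4 (chr5:105115767-105139586), Gbp10 (chr5:105215699-105239533) and Gbp6 (chr5:105270702-105293698). Gbp8, Gbp9 and Gbp4 overlap on the same strand, and each shares between 0.814% and 1.77% of its exonic bases with the others. Gbp7 shares 11.3% of its exonic bases with Gm43802. Gbp6 shares 29.0% and Gbp10 46.3% of theirs with Gm43302, a gene whose symbol is absent from the deposited matrices. The transcripts of Gbp6 and Gbp10 were 98.3% identical over their aligned bases. Library reads were taken to begin in the last 500 bases of each gene's longest coding transcript, which was not measured here. Of the 90-base windows there, 65.5% of those of Gbp6 and 100.0% of those of Gbp10 also occurred in a transcript of another gene. Gm43302 was among those genes for both members. Counts of Gbp6 and Gbp10 are therefore uncertain in how they were divided.

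The promoters of the chromosome 3 genes are shown because these were the only members with an entry in the promoter set used. All 5 carry the letters of an interferon response motif close to the start. Each sequence runs from 250 bases before to 50 bases after the RefSeq start on GRCm38.p6, plus strand, and capitals mark matches to the ISRE letters (GAAA, any 2 bases, GAAA, or TTTC, any 2 bases, TTTC for the other strand) or to the GAS letters (TTC, any 3 bases, GAA, the same on both strands). The windows are chr3:142620413-142620712 for Gbp2, chr3:142594597-142594896 for Gbp2b, chr3:142559794-142560093 for Gbp3, chr3:142496684-142496983 for Gbp5 and chr3:142530086-142530385 for Gbp7.
Gbp2: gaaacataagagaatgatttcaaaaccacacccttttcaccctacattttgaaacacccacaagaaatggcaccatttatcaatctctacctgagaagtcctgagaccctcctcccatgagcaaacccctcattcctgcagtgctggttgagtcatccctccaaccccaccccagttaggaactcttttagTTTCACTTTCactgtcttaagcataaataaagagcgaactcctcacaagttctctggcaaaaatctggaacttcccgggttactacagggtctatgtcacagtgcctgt
Gbp2b: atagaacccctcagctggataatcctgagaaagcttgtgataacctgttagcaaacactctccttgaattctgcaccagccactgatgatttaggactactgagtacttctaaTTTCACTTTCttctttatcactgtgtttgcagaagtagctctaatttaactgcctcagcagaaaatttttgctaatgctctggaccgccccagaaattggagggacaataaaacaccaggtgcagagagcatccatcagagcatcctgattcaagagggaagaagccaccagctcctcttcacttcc
Gbp3: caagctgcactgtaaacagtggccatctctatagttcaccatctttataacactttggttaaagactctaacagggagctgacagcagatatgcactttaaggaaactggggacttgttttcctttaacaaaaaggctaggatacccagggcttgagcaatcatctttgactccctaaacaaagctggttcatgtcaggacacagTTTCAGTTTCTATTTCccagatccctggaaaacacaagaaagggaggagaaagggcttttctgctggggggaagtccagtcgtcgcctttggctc
Gbp5: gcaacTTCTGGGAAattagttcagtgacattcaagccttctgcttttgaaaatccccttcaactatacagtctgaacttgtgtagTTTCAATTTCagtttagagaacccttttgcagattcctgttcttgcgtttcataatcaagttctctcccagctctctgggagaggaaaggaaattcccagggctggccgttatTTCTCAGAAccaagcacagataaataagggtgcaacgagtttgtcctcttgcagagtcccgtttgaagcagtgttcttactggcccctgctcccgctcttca
Gbp7: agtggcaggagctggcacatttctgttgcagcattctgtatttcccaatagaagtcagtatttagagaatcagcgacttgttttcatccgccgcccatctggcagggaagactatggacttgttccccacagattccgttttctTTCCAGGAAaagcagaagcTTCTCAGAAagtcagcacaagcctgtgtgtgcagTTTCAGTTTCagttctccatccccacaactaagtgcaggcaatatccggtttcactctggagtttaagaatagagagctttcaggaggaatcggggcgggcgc

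The ISRE letters began at base -59 from the start in Gbp2, -137 in Gbp2b, -165 in Gbp5 and -53 in Gbp7, and Gbp3 held 2 overlapping matches, at -45 and -39. The second RefSeq start of Gbp3 (window chr3:142560106-142560405) held neither motif. The GAS letters occurred in 2 of the 5 genes, at -245 and -52 in Gbp5 and at -106 and -87 in Gbp7. Of 32851 mouse promoters of the same length, 3.44% held the ISRE letters, 8.30% the GAS letters and 0.454% both. A match describes letters in the window, and no binding was measured. The promoters of Gbp4, Gbp6, Gbp8, Gbp9 and Gbp10 were not analysed here.

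The libraries held 72148493 UMIs in 10149 barcodes for anti-PD-1 and 67520433 UMIs in 9683 barcodes for isotype. After filters on depth, gene number, mitochondrial share and doublets, 9712 anti-PD-1 and 9286 isotype cells were kept, and 140 barcode sequences occurred in both libraries. Cells were put into 17 classes by gates on marker genes, none of them a guanylate-binding gene, and the 14 with 50 or more cells per library were compared. Each class had 3 to 7 of its own markers among its 10 leading genes by fold, and at most 1 of another class. Many of these markers also made the gates, so their place among the leading genes is no independent check of the classes. No gate took 15.3% of anti-PD-1 and 15.3% of isotype cells, and a further 2.37% of anti-PD-1 and 1.92% of isotype cells met gates of more than 1 lineage. Markers of cells that the sort should remove were low: hepatocyte genes summed to 0.627 CPM (counts per 1000000 UMIs) in anti-PD-1 and 0.652 CPM in isotype cells, and those of endothelial cells to 18.0 CPM in anti-PD-1 and 20.3 CPM in isotype cells, against 425 CPM in anti-PD-1 and 396 CPM in isotype cells for Ptprc, which encodes CD45.

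Over all kept cells the summed level of the 10 genes was 671 CPM in the anti-PD-1 library and 359 CPM in the isotype library, a log2 ratio of 0.90 with a 95% interval of 0.88 to 0.93. A level here is the gene's UMIs over all UMIs of the class, in CPM, and a ratio is the level in anti-PD-1 over that in isotype. UMIs are 3′ tags, so levels are not divided by transcript length. Intervals of levels and ratios cover counting error of the pooled UMIs only, and leave out the spread between cells of a class. No interval covers the spread between mice, which 1 library per group cannot show. Of the 10 members, 8 were at least 1.5-fold higher in anti-PD-1, a fold that 6.82% of all 15212 genes with at least 10 UMIs passed in that direction. None was at least 1.5-fold lower, as 5.13% of all genes were.

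Gbp2, the most abundant member, had 338 CPM in anti-PD-1 and 166 CPM in isotype cells. Its close relative Gbp2b, also known as Gbp1, had 6.97 CPM in anti-PD-1 and 1.91 CPM in isotype cells, the widest ratio of the 10 at 1.87. Gbp5, which takes part in inflammasome activation in mice, had 64.0 CPM in anti-PD-1 and 33.7 CPM in isotype cells. The ratios of Gbp2 and Gbp5 were 1.02 and 0.92, and all 3 intervals lay above 0. The neighbours Gbp3, with 58.1 CPM in anti-PD-1 and 34.8 CPM in isotype cells, and Gbp7, with 58.1 CPM in anti-PD-1 and 40.2 CPM in isotype cells, had smaller ratios of 0.74 and 0.53. Mouse Gbp7 has been linked to the assembly of the NADPH oxidase at bacterial vacuoles.

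On chromosome 5, Gbp4 had 57.5 CPM in anti-PD-1 and 28.7 CPM in isotype cells, a ratio of 1.00, and Gbp6 had 22.6 CPM in anti-PD-1 and 11.1 CPM in isotype cells, a ratio of 1.03. Gbp8 had 31.5 CPM in anti-PD-1 and 19.7 CPM in isotype cells, and Gbp9 had 33.0 CPM in anti-PD-1 and 21.7 CPM in isotype cells, with ratios of 0.68 and 0.61 whose intervals lie below that of Gbp4. Gbp10 was counted 54 times in anti-PD-1 and 36 times in isotype cells, at 0.787 CPM in anti-PD-1 and 0.559 CPM in isotype cells, and its interval of -0.14 to 1.14 on the log2 scale includes no difference. Together the chromosome 3 genes held 78.3% of the members' UMIs in anti-PD-1 and 77.2% in isotype cells. Their summed ratio was 0.92 (0.90 to 0.95), and that of the chromosome 5 genes was 0.83 (0.78 to 0.88).

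The whole-library ratio also holds the make-up of the library, so the members were followed within classes. The summed level was higher in anti-PD-1 in 12 of the 14 classes compared, with an interval above 0 in 10 and below 0 in 1, and the median ratio over classes was 0.74. Over the 10 myeloid and dendritic classes, 70 of the 75 pairs of a member and a class with UMIs in both libraries and at least 10 in all were higher in anti-PD-1, against 60.3% of such pairs of all genes. The interval lay above 0 in 52, against 11.1% for all genes. The other 5 pairs were lower (39.7% for all genes), none with an interval below 0 (4.7%), and the median of the 75 was 0.78. Over the 4 T cell classes, 18 of 35 pairs were higher and 17 lower, against 58.8% and 41.2% for all genes. Intervals there lay above 0 in 4 (9.16% for all genes) and below 0 in 3 (5.22%), and the median was 0.03. The difference between these medians is described and was not tested.

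At a fold of 2 the members past it were 4 of 10 over all kept cells, against 2.8% of all genes. In monocytes and macrophages they were 4 in classical monocytes (1.71% of all genes), 5 in C1q macrophages (2.23%), 1 in Arg1 macrophages (1.94%) and 3 in non-classical monocytes (3.62%). In dendritic cells they were 5 in cDC1 (5.24%), 1 in cDC2 (2.75%), 1 in migratory DC (3.17%) and 3 in pDC (7.99%), and in granulocytes 6 in neutrophils (5.09%) and 1 in immature neutrophils (8.84%). In T cells they were 0 in CD8 T cells (7.79%), 1 in CD4 T cells (5.37%), 1 in regulatory T cells (7.06%) and 1 in other T cells (7.09%). No T cell class had more than 1 member past that fold, and neither did Arg1 macrophages, cDC2, migratory DC or immature neutrophils. The members with at least 10 UMIs ran from 3 in immature neutrophils to 9 in several classes.

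**Figure D1:**
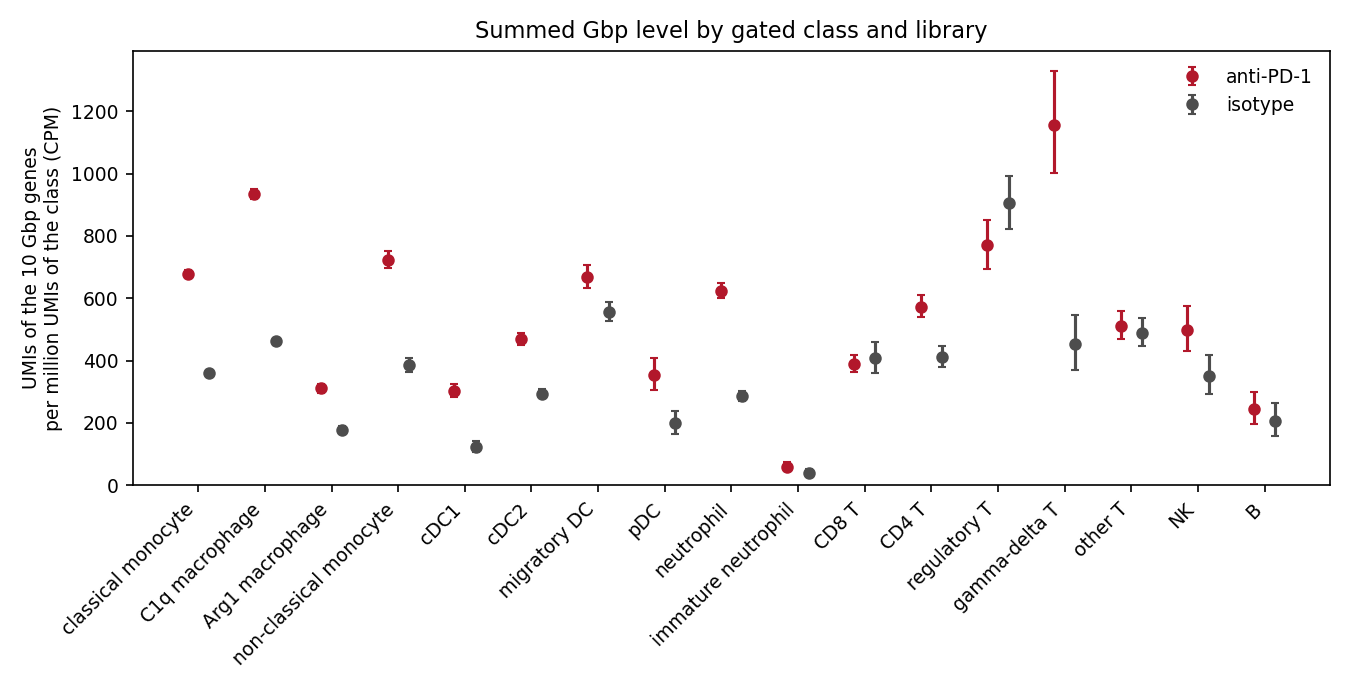
Summed level of the 10 Gbp genes in each gated class, in CPM of the class total, for the anti-PD-1 (red) and isotype (grey) library; points are 1 library each and bars are exact Poisson 95% intervals. The red point lies above the grey one in all 10 myeloid and dendritic classes. The pairs lie close together in CD8 and other T cells, and the grey point lies above the red one in regulatory T cells.

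C1q macrophages, which carry the genes of complement C1q, had the highest summed level of the myeloid classes in the anti-PD-1 library. They held 935 CPM in anti-PD-1 (1658 cells) and 462 CPM in isotype (1609 cells), a ratio of 1.02 (0.98 to 1.06). Of the 9 members with at least 10 UMIs there, 8 were at least 1.5-fold higher in anti-PD-1, against 6.41% of all genes, and the median of the 9 was 1.06 beside 0.06 for all genes. Gbp2 had 477 CPM in anti-PD-1 and 228 CPM in isotype, Gbp4 had 98.4 CPM in anti-PD-1 and 42.4 CPM in isotype, and Gbp5 had 66.3 CPM in anti-PD-1 and 25.8 CPM in isotype. Gbp2b was concentrated in this class, with 328 of its 478 UMIs in anti-PD-1 and 87 of its 123 in isotype, at 24.8 CPM in anti-PD-1 and 5.92 CPM in isotype, and its ratio of 2.07 was the widest of the class. Gbp7 had the narrowest, 0.57, from 63.8 CPM in anti-PD-1 and 43.1 CPM in isotype.

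Classical monocytes, the Ly6C-high cells that enter tumours from blood, held 677 CPM in anti-PD-1 (1603 cells) and 359.6 CPM in isotype (1322 cells), a ratio of 0.91 (0.86 to 0.96). Here 7 of 9 members were at least 1.5-fold higher, against 5.0% of all genes. Gbp2 had 378 CPM in anti-PD-1 and 181 CPM in isotype, Gbp5 62.4 CPM in anti-PD-1 and 29.3 CPM in isotype, and Gbp6 16.6 CPM in anti-PD-1 and 6.41 CPM in isotype. Gbp7 and Gbp9 stayed under 1.5-fold, with ratios of 0.51 and 0.44. Gbp2b was rare, with 29 UMIs in anti-PD-1 and 5 in isotype, so its ratio of 2.30 had an interval from 0.92 to 4.03.

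Non-classical monocytes, which patrol vessel walls, held 724 CPM in anti-PD-1 (436 cells) and 385 CPM in isotype (334 cells), a ratio of 0.91 (0.81 to 1.01), and 6 of 9 members passed 1.5-fold, against 9.26% of all genes. Gbp4 had the widest ratio there, 1.47, at 49.9 CPM in anti-PD-1 and 18.1 CPM in isotype, and Gbp2b had 8 UMIs in anti-PD-1 and 9 in isotype. Macrophages gated on Arg1, a gene of arginine breakdown, held less: 311 CPM in anti-PD-1 (817 cells) and 179 CPM in isotype (944 cells), a ratio of 0.80 (0.69 to 0.91). There 5 of 9 members were at least 1.5-fold higher, against 6.23% of all genes. Only Gbp2b was lower by that fold, against 6.37% of all genes, from 4 UMIs in anti-PD-1 and 8 in isotype.

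Neutrophils, short-lived granulocytes and the shallowest class with a median of 2067 UMIs per cell in anti-PD-1 and 1926 in isotype, had the second-widest summed ratio of the 14 classes compared, 1.13 (1.03 to 1.23), at 625 CPM in anti-PD-1 (2020 cells) and 286 CPM in isotype (2026 cells). All 7 members with at least 10 UMIs were at least 1.5-fold higher, against 12.2% of all genes. Gbp2 made up 65.0% of the members' UMIs in anti-PD-1 and 65.6% in isotype neutrophils, at 406 CPM in anti-PD-1 and 188 CPM in isotype. Gbp4 had 12.9 CPM in anti-PD-1 and 2.85 CPM in isotype, a ratio of 2.18 (1.27 to 3.21). Gbp8 was counted 19 times in anti-PD-1 and 0 times in isotype. With isotype set at 3 counts its ratio was 2.57, and the lower end of its interval was 2.13. Immature neutrophils, which still carry granule genes such as Camp and Ngp, had the lowest summed level of all classes, 58.8 CPM in anti-PD-1 (56 UMIs) and 39.9 CPM in isotype (54 UMIs). Their interval of -0.01 to 1.13 includes no difference, and 1 of 3 members passed 1.5-fold, against 22.2% of all genes. That was Gbp2, with 24 UMIs in anti-PD-1 and 9 in isotype, while Gbp3, with 3 UMIs in anti-PD-1 and 7 in isotype, was lower by that fold, against 7.09% of all genes.

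Among dendritic cells, cDC1, the cross-presenting subset, had the widest summed ratio of the 14 classes compared, 1.29 (1.07 to 1.51). Its interval overlapped that of neutrophils. The class held 304 CPM in anti-PD-1 (127 cells) and 124 CPM in isotype (89 cells). In cDC1, 1 cell gave 10.3% of the members' UMIs in anti-PD-1 and 1 cell 10.0% in isotype. Here 5 of 7 members passed 1.5-fold, against 14.6% of all genes, and Gbp2 had 163 CPM in anti-PD-1 and 53.4 CPM in isotype. The subset cDC2, which presents antigen mainly to CD4 T cells, held 469 CPM in anti-PD-1 (365 cells) and 294 CPM in isotype (409 cells), a ratio of 0.67 (0.58 to 0.77), with 5 of 8 members past 1.5-fold, against 8.19% of all genes. Plasmacytoid dendritic cells, specialised in type I interferon, held 355 CPM in anti-PD-1 and 199 CPM in isotype, a ratio of 0.84 (0.50 to 1.18), and 5 of 7 members passed, against 19.0% of all genes. In that class 1 cell gave 20.4% of the members' UMIs in anti-PD-1 and 1 cell 30.8% in isotype.

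Migratory dendritic cells, the Ccr7 and Fscn1 state that carries antigen to lymph nodes, differed from the other dendritic classes in both respects. Their level was high in both libraries, 669 CPM in anti-PD-1 (188 cells) and 557 CPM in isotype (208 cells), and the ratio was small, 0.26 (0.15 to 0.38), an interval that lies below those of cDC1, cDC2 and plasmacytoid cells. Gbp2 had 330.1 CPM in anti-PD-1 and 271 CPM in isotype, and Gbp5 134 CPM in anti-PD-1 and 118 CPM in isotype. Of 9 members 1 passed 1.5-fold, against 9.14% of all genes. That was Gbp2b, with 11 UMIs in anti-PD-1 and 0 in isotype, a ratio of at least 1.97 by the same floor.

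**Figure D2:**
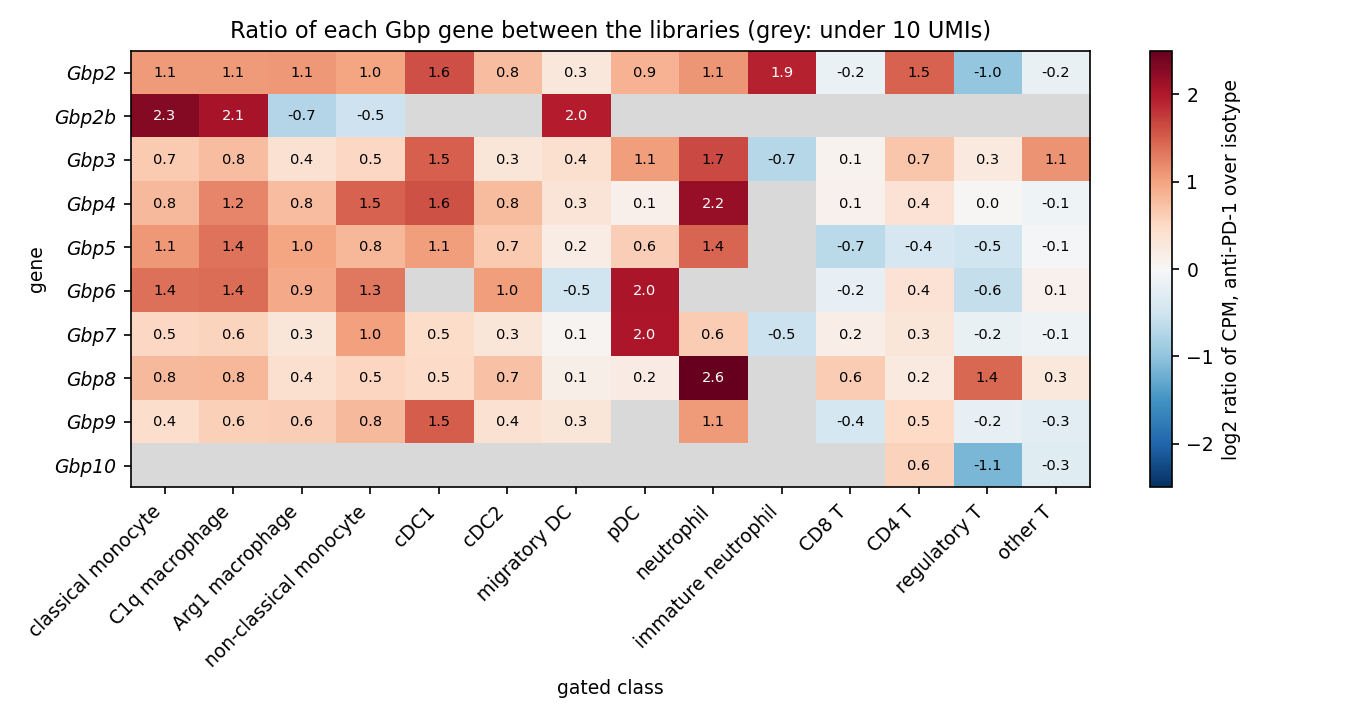
Log2 ratio of each Gbp gene (rows), anti-PD-1 over isotype, in the 14 classes compared (columns); red is higher in anti-PD-1, blue lower, and grey marks under 10 UMIs over both libraries. Gbp2b in migratory DC and Gbp8 in neutrophils had 0 UMIs in isotype and are drawn with isotype set at 3 counts. Columns of mature myeloid cells are mostly red, and the regulatory T column is mostly blue.

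The 4 T cell classes compared held between 389.8 and 769.7 CPM in anti-PD-1 and between 408 and 905 CPM in isotype, and their ratios lay on both sides of 0. CD8 T cells, the cytotoxic lineage, held 389.8 CPM in anti-PD-1 (184 cells) and 408 CPM in isotype (65 cells), a ratio of -0.07 (-0.27 to 0.14). Of 8 members 1 was at least 1.5-fold higher, Gbp8, against 17.9% of all genes, and 1 was lower by that fold, Gbp5, against 9.22% of all genes. Gbp5 had 29.6 CPM in anti-PD-1 and 47.0 CPM in isotype CD8 T cells. T cells that no T subset gate took, called other T, held 512 CPM in anti-PD-1 and 489.8 CPM in isotype, a ratio of 0.07 (-0.12 to 0.25), and 1 of 9 members passed 1.5-fold, against 18.2% of all genes: Gbp3, with 78.5 CPM in anti-PD-1 and 36.2 CPM in isotype.

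CD4 T cells without Foxp3 held 573 CPM in anti-PD-1 (167 cells) and 412 CPM in isotype (185 cells), a ratio of 0.47 (0.33 to 0.62), with 2 of 9 members past 1.5-fold, against 14.2% of all genes. Gbp2 had 138 CPM in anti-PD-1 and 49.5 CPM in isotype, a ratio of 1.48. A single anti-PD-1 cell gave 113 of the class's 1025 member UMIs, and without the 1 cell with most Gbp2 UMIs in each library the Gbp2 ratio was 0.92. Gbp5 stood the other way, with 60.9 CPM in anti-PD-1 and 81.1 CPM in isotype, a ratio of -0.41 (-0.80 to -0.02).

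Regulatory T cells, gated on Foxp3, were the only class compared with a summed interval below 0. They held 769.7 CPM in anti-PD-1 (64 cells, 378 UMIs) and 905 CPM in isotype (56 cells, 445 UMIs), a ratio of -0.23 (-0.43 to -0.03), which turned to 0.22 when every cell was thinned to 1000 UMIs. With clusters in place of gates it was -0.18 (-0.36 to 0.01), an interval that includes 0. Of 9 members 3 were at least 1.5-fold lower, against 12.7% of all genes, and 1 was higher, against 17.3% of all genes. Gbp2 had 57.0 CPM in anti-PD-1 and 112 CPM in isotype (28 UMIs in anti-PD-1 and 55 in isotype), a ratio of -0.97 (-1.68 to -0.29). Gbp5 had 126 CPM in anti-PD-1 and 179 CPM in isotype, and Gbp8, the member that was higher, had 38.7 CPM in anti-PD-1 and 14.2 CPM in isotype, from 19 UMIs in anti-PD-1 and 7 in isotype.

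Myeloid RNA was counted in T cell gates, and more in anti-PD-1 CD8 T cells. Lyz2, a lysozyme gene of myeloid cells that entered no gate, had 330.2 CPM in anti-PD-1 and 6.07 CPM in isotype CD8 T cells, against 9732 CPM in anti-PD-1 and 8331 CPM in isotype monocytes and macrophages. If all that Lyz2 came from monocytes and macrophages, their members' RNA would give 6.29% of the summed level of CD8 T cells in anti-PD-1 and 0.0662% in isotype. For Gbp2 alone that share was 23.0% in anti-PD-1 and 0.207% in isotype CD8 T cells, and the part of such RNA in the CD8 T ratio was not tested. In CD4 T cells the share of the summed level was 0.457% in anti-PD-1 and 1.42% in isotype, and that of Gbp2 was 1.00% in anti-PD-1 and 5.80% in isotype. In other T cells the share of the summed level was 5.14% in anti-PD-1 and 1.18% in isotype, and in regulatory T cells it was 0.118% in anti-PD-1 and 0.0400% in isotype.

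The 3 remaining lymphoid classes were too small in at least 1 library to be compared and are given as levels. Gamma-delta T cells, an innate-like lineage that here carried Il17a, held 1157 CPM in anti-PD-1 (31 cells) and 453 CPM in isotype (45 cells). NK cells held 498 CPM in anti-PD-1 (47 cells) and 352 CPM in isotype (53 cells), and B cells held 244 CPM in anti-PD-1 (48 cells) and 206 CPM in isotype (49 cells). Of the 17 classes, gamma-delta T cells, C1q macrophages and regulatory T cells stood highest in anti-PD-1, and regulatory T cells, migratory DC and other T cells in isotype. Intervals of neighbours in this order overlapped in 11 of 16 cases in anti-PD-1 and in 12 of 16 in isotype, so most neighbouring places cannot be told apart.

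Which gene led differed between lineages. Gbp2 was the most counted member in 12 of 17 classes in anti-PD-1 and in 10 of 17 in isotype, among them every mature myeloid and dendritic class. In regulatory T cells Gbp2 came to 28 of 378 member UMIs in anti-PD-1 and 55 of 445 in isotype, and Gbp7 had the most, 83 in anti-PD-1 and 95 in isotype, followed by Gbp3 with 76 in anti-PD-1 and Gbp5 with 88 in isotype. In CD8 T cells Gbp4 had the most, 162 in anti-PD-1 and 46 in isotype, followed by Gbp7 with 147 in anti-PD-1 and Gbp2 with 42 in isotype. These gaps between neighbours are small beside counting error. Gbp6 led in gamma-delta T cells, with 44.7% in anti-PD-1 and 36.4% in isotype, at 517 CPM in anti-PD-1 and 165 CPM in isotype, its highest level of the 17 classes, within the limit given above for counts of Gbp6. The chromosome 3 genes held 92.0% of member UMIs in anti-PD-1 and 93.8% in isotype neutrophils, but 52.4% in anti-PD-1 and 53.5% in isotype CD8 T cells.

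**Figure D3:**
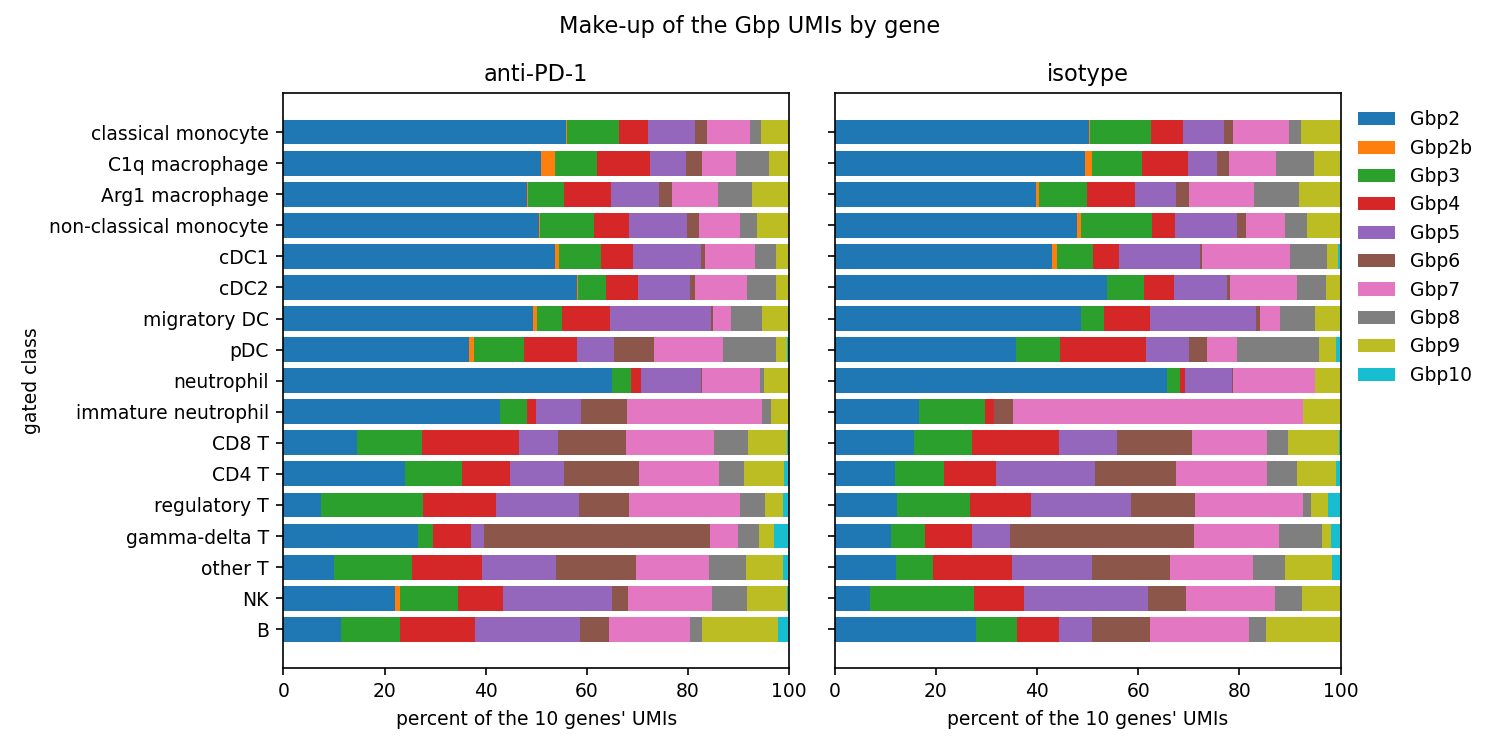
Share of each Gbp gene in the members' UMIs, in percent, by gated class, for anti-PD-1 (left) and isotype (right). Gbp2 (blue) takes the most in mature myeloid and dendritic classes, up to 65.0% in anti-PD-1 and 65.6% in isotype neutrophils, and Gbp6 (brown) in gamma-delta T cells.

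Gbp2b and Gbp10 were the least counted members, Gbp10 within the limit given above for its counts. Gbp2b was at 0 UMIs in 7 of 17 classes in anti-PD-1 and in 11 of 17 in isotype, neutrophils and CD4 T cells among them in both libraries. Gbp10 reached 10 UMIs in 1 class of each library, CD4 T cells in anti-PD-1 with 11 UMIs and regulatory T cells in isotype with 11 UMIs, and its ratios in CD4, regulatory and other T cells all had intervals that include 0. Over the classes, log2(CPM + 1) of Gbp4 (Pearson r 0.81), Gbp5 (0.80) and Gbp3 (0.78) followed the sum of the other 9 members most closely, and Gbp2 (0.37) and Gbp2b (0.24) least. These values run over 34 points, 17 classes in each of 2 libraries, which share their library and differ in depth, and they are given as a description.

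The share of cells with a UMI of a member is given next. No class is known to lack the members, so no background share from free RNA was measured, and the part of such RNA in these shares was not tested. After each cell was thinned to 1000 UMIs, at least 1 UMI of the 10 genes was found in 38.2% of anti-PD-1 and 26.2% of isotype C1q macrophages, with a 95% interval of the difference of 8.78 to 15.2 percentage points. Unthinned, the shares were 70.7% in anti-PD-1 and 63.6% in isotype. In neutrophils the thinned shares were 20.9% in anti-PD-1 and 12.1% in isotype (difference 8.83, 6.46 to 11.2), with 147 anti-PD-1 and 175 isotype cells too shallow to enter, and 29.1% in anti-PD-1 and 17.4% in isotype unthinned. In classical monocytes they were 28.6% in anti-PD-1 and 20.3% in isotype (difference 8.35, 5.22 to 11.4).

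Non-classical monocytes had 32.8% in anti-PD-1 and 21.9% in isotype (difference 10.9, 4.58 to 17.1), and cDC2 had 26.6% in anti-PD-1 and 19.9% in isotype (difference 6.67, 0.717 to 12.6). In the other 9 classes the interval of the difference included 0. Among them cDC1, the class with the widest summed ratio compared, had 16.5% in anti-PD-1 and 11.4% in isotype (difference 5.17, -4.77 to 14.2). Arg1 macrophages had 13.4% in anti-PD-1 and 11.3% in isotype (difference 2.07, -1.04 to 5.22), and migratory DC had 38.8% in anti-PD-1 and 39.0% in isotype. CD8 T cells had 34.2% in anti-PD-1 and 42.2% in isotype, and regulatory T cells 48.4% in anti-PD-1 and 53.6% in isotype. The lowest shares were those of immature neutrophils, 5.80% in anti-PD-1 and 5.43% in isotype, with a median depth of 11259 UMIs in anti-PD-1 and 12150.0 in isotype before thinning. The UMIs were unevenly spread over cells: the 10% of C1q macrophages with most member UMIs held 54.4% of them in anti-PD-1 and 60.5% in isotype, and the top 10% of neutrophils 80.5% in anti-PD-1 and 87.6% in isotype.

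**Figure D4:**
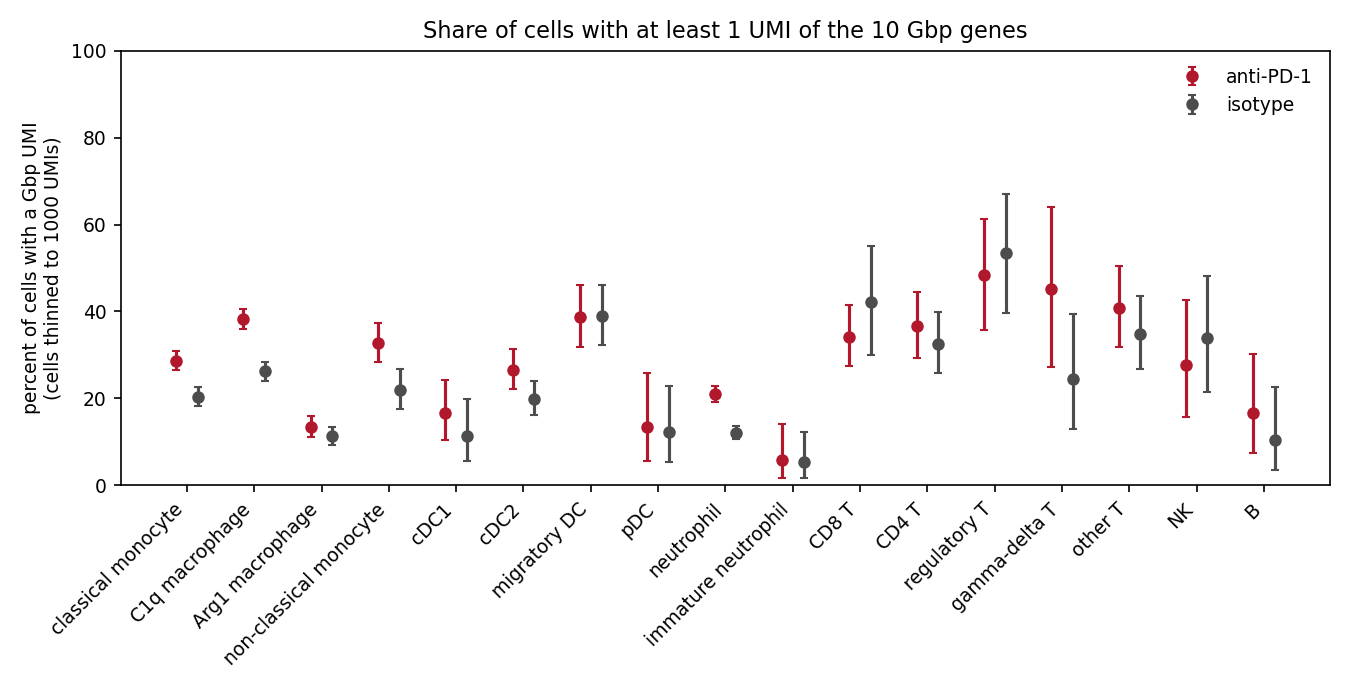
Percent of cells with at least 1 UMI of the 10 Gbp genes, after thinning each cell to 1000 UMIs, by class, for anti-PD-1 (red) and isotype (grey); bars are exact binomial 95% intervals. The intervals are apart in classical monocytes, C1q macrophages, non-classical monocytes and neutrophils, and overlap in the other classes.

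The members were read beside other genes of the interferon pathway. The ligand gene Ifng was counted at 42.1 CPM in anti-PD-1 and 39.4 CPM in isotype cells over all kept cells. Of 6 genes for interferons and related cytokines 1, Il27, was at least 1.5-fold higher there, against 6.82% of all genes. It had 5.80 CPM in anti-PD-1 and 2.77 CPM in isotype cells. Another, Ifna4, was lower by that fold, against 5.13% of all genes, with 46 UMIs in anti-PD-1 and 74 in isotype cells. The level of Ifng was 335 CPM in anti-PD-1 and 406 CPM in isotype CD8 T cells, and 48.9 CPM in anti-PD-1 (24 UMIs) and 248 CPM in isotype (122 UMIs) regulatory T cells. Of the receptor and signalling genes, Irf1, whose product binds the ISRE, had 183 CPM in anti-PD-1 and 101 CPM in isotype C1q macrophages. In this list of 8 genes 3 were at least 1.5-fold higher in C1q macrophages, against 6.41% of all genes, with a median of 0.34. In CD8 T cells Irf1 had a ratio of 0.15 (-0.13 to 0.45).

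The immunity-related GTPases, smaller interferon-induced GTPases that act with the members at pathogen vacuoles, were higher in the same myeloid classes. All 8 with at least 10 UMIs were at least 1.5-fold higher in C1q macrophages (median 1.32), against 6.41% of all genes. So were all 8 in classical monocytes (median 1.01), against 5.0%, and 6 of 6 in neutrophils (median 1.40), against 12.2%. Iigp1 had 33.7 CPM in anti-PD-1 and 8.02 CPM in isotype C1q macrophages, and Tgtp2 had 13.1 CPM in anti-PD-1 and 1.43 CPM in isotype neutrophils. In CD8 T cells the median of 6 was -0.09, and in regulatory T cells that of 7 was 0.05. Ifi47 of this family was also the gene whose level over the 34 points was most like the summed members, of 11722 genes, with a Pearson r of 0.82. Nlrc5, an activator of MHC class I genes, Gpr132, Parp14 and B2m, the light chain of MHC class I, came next, with values between 0.79 and 0.80, as a description only.

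Type I interferon genes were counted in the same classes. In C1q macrophages 2 of 12 measured were at least 1.5-fold higher (median 0.28), against 6.41% of all genes. In non-classical monocytes 10 of 11 were (median 0.91), against 9.26% of all genes. In CD8 T cells 7 of 11 were at least 1.5-fold lower (median -0.84), against 9.22% of all genes. In regulatory T cells it was also 7 of 11 (median -0.85), against 12.7% of all genes. The members had medians of -0.04 in CD8 T cells and -0.20 in regulatory T cells. Type I medians were -0.02 in CD4 T cells, over 11 genes, and -0.56 in other T cells, over 10. Isg15 had 386 CPM in anti-PD-1 and 775 CPM in isotype CD8 T cells, and Ifit1 had 703 CPM in anti-PD-1 and 1273 CPM in isotype regulatory T cells. Of the interferon-gamma genes outside the GTPases, 6 of 12 were at least 1.5-fold higher in C1q macrophages (median 0.56), against 6.41% of all genes. In neutrophils 7 of 12 were (median 0.79), against 12.2% of all genes. The chemokine gene Cxcl9 had 55.4 CPM in anti-PD-1 and 10.2 CPM in isotype neutrophils. Of the partners in inflammasome and caspase signalling 0 of 9 passed 1.5-fold in C1q macrophages (median 0.29), against 6.41% of all genes. Casp4, which encodes mouse caspase-11, had 34.3 CPM in anti-PD-1 and 28.4 CPM in isotype C1q macrophages.

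The level also varied inside classes, as seen in clusters built without guanylate-binding genes and a fixed set of interferon-induced genes. Interferon-induced genes outside that set were not removed. Of 22 clusters with at least 50 cells in each library, 21 had a higher summed level in anti-PD-1, 20 with an interval above 0, and ratios ran from -0.18 to 1.60 around a median of 0.80. The 4 neutrophil clusters ranged widely in level and in ratio. Cluster 4 held 1522 CPM in anti-PD-1 and 632 CPM in isotype, and cluster 1 held 251 CPM in anti-PD-1 and 83.1 CPM in isotype. Their ratios ran from 0.31 (0.10 to 0.51) in cluster 6 to 1.60 (1.28 to 1.92) in cluster 1. The highest level, 2443 CPM in anti-PD-1 (545 cells) and 1313 CPM in isotype (330 cells), was in a cluster of mixed gates, of whose gated cells 51.3% were C1q macrophages. Of its cells, 335 in anti-PD-1 and 214 in isotype were taken by no gate.

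The borders of these clusters depended on the settings. Over 9 clusterings that varied the seed, resolution and neighbour number, the one above included and the others added after the data were seen, between 16 and 25 clusters could be compared and all but 1 of them were higher in anti-PD-1 each time. The highest-level cluster held between 1423 and 2705 CPM in anti-PD-1 and between 621 and 1792 CPM in isotype, with a ratio between 0.59 and 1.23. C1q macrophages inside that cluster had ratios from 0.26 to 1.04, and those outside it from 0.60 to 0.98, so no split of the difference between a high-level state and the rest is given.

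**Figure D5:**
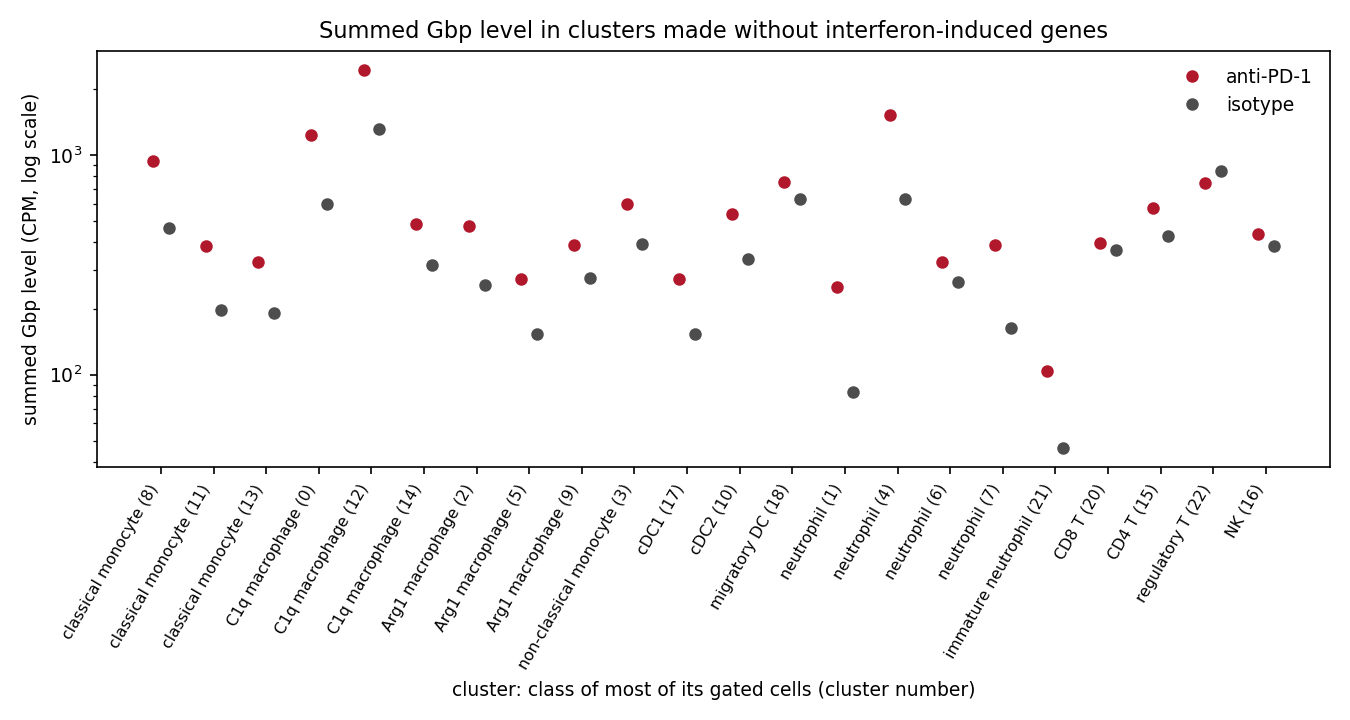
Summed Gbp level in CPM, on a log axis, in the 22 clusters with at least 50 cells in each library, for anti-PD-1 (red) and isotype (grey); each cluster is named by the class with the largest share of its gated cells, under 50% in some, with its number in brackets. Red lies above grey in 21 of the 22 clusters, and the exception is the regulatory T cluster.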

How the data were processed

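Per the labels' protocols, live CD45+ cells were enriched with beads, sorted, and sequenced as 1 10x Genomics 3′ v2 library per antibody. The values the authors deposited are raw UMI counts per gene and barcode, not normalized, made with Cell Ranger 5.0.1 per the file headers. Version 2.1.1 and the build mm10 stand in the submitters' processing notes, and which version holds was not settled. Counts were read from the sparse matrices. Cells needed 500 UMIs, 200 genes and a mitochondrial share of 10% or less. Cells with a scrublet doublet score above 0.25, a limit that earlier work on these data had set after seeing the scores, were removed (302 in anti-PD-1, 280 in isotype).

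Classes came from the number of distinct markers with a UMI in a cell, in an order of precedence. For each class of a library the UMIs were summed and given as CPM, with exact Poisson intervals for levels, exact conditional binomial intervals for ratios, Clopper-Pearson intervals for shares and Newcombe intervals for their differences, all at 95%. Members with under 10 UMIs over both libraries in a class got no ratio, and a library at 0 was set against 3 counts. All 10 members are named, with the 5 genes most like their sum and genes of fixed lists. Of the listed genes, Gm12250, Mx2 and Gbp11 were not analysed here, and 1 more is not reported here. The calculation was tested on simulated data.

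Clusters came from 2000 variable genes, 30 principal components, 15 neighbours and Leiden clustering at resolution 1.5. The first neighbour graph did not repeat between machines, and it was replaced for that reason by one with exact arithmetic after its results had been seen. Single-cluster values differed between the graphs, so other settings were added. The members, gates and lists were chosen with earlier results of these data known. Alternatives were other filters, thinning, TMM scaling (edgeR 4.0.16, R 4.3.3), stricter gates, clusters in place of gates and leaving out single cells. Python 3.11.15, scanpy 1.11.5, scipy 1.17.1 and igraph 0.11.9 were used.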

Additional observations from a re-analysis of the deposited data

Results flagged for a closer look

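Regulatory T cells stood apart because their summed ratio had the opposite sign to that of 10 other classes whose intervals lay above 0. The level was 769.7 CPM in anti-PD-1 and 905 CPM in isotype regulatory T cells, a log2 ratio of -0.23. Each library is 1 sample, so the difference between regulatory T cells and the other classes was not tested. Thinned to 1000 UMIs per cell, the ratio was 0.22.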

How the results depend on the processing

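No paired analysis was possible because each group is 1 library. With 1 library per antibody, differences between mice, and between library preparations, cannot be told apart from the antibody. Over the 12 alternatives of each class, summed ratios stayed above 0 in classical monocytes, C1q and Arg1 macrophages, non-classical monocytes, cDC1, cDC2, migratory DC, pDC, neutrophils, immature neutrophils and CD4 T cells. Those of migratory DC (0.23 to 0.32), neutrophils (1.05 to 1.18) and CD4 T cells (0.38 to 0.56) moved least.

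That of CD8 T cells was above 0 in 3 of them, 0.00 with doublets kept among these, and that of other T cells was below 0 with TMM scaling, at -0.07. The ratio changed sign in regulatory T cells, to 0.22 when thinned to 1000 UMIs, and so did Gbp4 in cDC2, to -0.49, and the cause was not tested. Of 94 member ratios, thinning kept 48 within their interval, moved 45 and reversed 1. Thinning gave 0.86 in classical monocytes, 0.87 in C1q macrophages, 1.06 in non-classical monocytes, 0.88 in cDC2 and -0.30 in CD8 T cells. With 1 more marker per gate the ratio was 0.43 in Arg1 macrophages, 1.06 in non-classical monocytes, 0.87 in cDC1, 1.44 in pDC (44 anti-PD-1 cells, under the minimum of 50) and 0.21 in CD8 T cells.

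With clusters in place of gates it was 1.04 in classical monocytes, 1.18 in C1q macrophages, 0.61 in non-classical monocytes, 0.82 in cDC1, 1.24 in pDC (39 anti-PD-1 cells) and 0.15 in CD8 T cells. The value of CD8 T cells pools 2 clusters, in 1 of which 40.3% of gated cells were CD8 T cells. No cluster had other T as its class, so none gave a value. These values come from 1 clustering. Without Ly6c2 in its gate, chosen after seeing the data, classical monocytes had 0.84.

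With each cell's CPM averaged, C1q macrophages had 0.96, Arg1 macrophages 0.67, pDC 1.22 and immature neutrophils 1.40. TMM scaling gave 0.96 in C1q macrophages and 0.82 over all kept cells, and weighting each class by its share gave 0.95 over all kept cells. TMM shifted all genes by -0.19 in immature neutrophils, -0.14 in other T cells, -0.11 in cDC1 and -0.11 in pDC. At a fold of 2 the members past it were 4 of 9 in classical monocytes, against 1.71% of all genes. They were 5 of 9 in C1q macrophages (2.23%), 1 of 9 in Arg1 macrophages (1.94%) and 3 of 9 in non-classical monocytes (3.62%). In dendritic cells they were 5 of 7 in cDC1 (5.24%), 1 of 8 in cDC2 (2.75%) and 3 of 7 in pDC (7.99%). Neutrophils had 6 of 7 (5.09%), CD8 T cells 0 of 8 (7.79%) and CD4 T cells 1 of 9 (5.37%). The remaining classes are given above. With members of at least 1 UMI included, 2 passed 1.5-fold in migratory DC, against 10.8% of all genes with 1 UMI, and 3 in immature neutrophils, against 21.1%.

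Without the 1 cell with most UMIs of the member in each library, 108 of 110 member ratios kept within their interval. Thinned to 2000 UMIs, the difference in the share of cells with a member was 15.3 points in C1q macrophages and 12.04 points in neutrophils.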

Other observations

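Cells that no gate took, and cells that met gates of more than 1 lineage, were left out of the classes. Ungated cells held 949 CPM of the 10 Gbp genes in anti-PD-1 (1489 cells) and 438 CPM in isotype (1418 cells), a log2 ratio of 1.12 (1.05 to 1.18). Mixed cells held 671 CPM in anti-PD-1 (230 cells) and 247 CPM in isotype (178 cells), a ratio of 1.44 (1.31 to 1.58). Genes that led the highest-level cluster against all other kept cells were Ly6i, at 456 CPM in the cluster and 53.8 CPM outside it, and Il27, which encodes a subunit of interleukin-27, at 29.9 CPM in the cluster and 3.34 CPM outside it. Cxcl9 had 866 CPM in that cluster and 152 CPM outside it.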
